A study of Homo sapiens with 12 samples.

Results

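The genes described here are 10 classical androgen-induced genes, CAMKK2, TPD52, NDRG1, PMEPA1, HERC3, ZBTB10, CENPN, C1orf116, MPHOSPH9 and GNMT. They were taken by symbol from a count table of 56269 genes, and all 10 were among the 16115 genes that passed the filter on low counts and were tested. RNA was sequenced from C4-2, a castration-resistant prostate cancer cell line derived from LNCaP. Every library came from cells grown in RPMI medium with serum, transfected with siRNA for 48 h, kept without serum for 12 h and treated for 24 h. The siRNA was either nonspecific or directed at paxillin, and each was followed by either ethanol vehicle or 2.5 nM dihydrotestosterone (DHT), which gave 4 groups of 3 libraries. Paxillin, the product of PXN, is an adaptor protein of focal adhesions, and the design asks whether its depletion alters the response to androgen. One line was used, and the labels do not say whether replicates were separate cultures, so the p-values measure the spread between these libraries.

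DHT is the most potent natural androgen, a steroid hormone that changes the transcription of many genes in luminal prostate cells. Its induced genes serve many functions, from protein kinases and ubiquitin ligases to metabolic enzymes. Much of this control acts through enhancers away from promoters, in luminal prostate cells often together with the factors FOXA1 and HOXB13.

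Library totals ran from 11944906 to 32040465 counts, and levels are given in CPM, counts scaled to a common library size by TMM factors. PXN lay at 121 to 151 CPM in the 6 libraries with nonspecific siRNA and at 9.36 to 16.7 CPM in the 6 with paxillin siRNA. All 7 markers of luminal prostate cells that were examined were detected in the libraries. Of 13 markers of other cells, KRT5 and TP63 (basal), COL1A2 and DCN (fibroblast), PECAM1 and CDH5 (endothelial) and PTPRC and CD68 (blood) had at most 3 counts in any library, and CD3E had 0. The basal gene KRT14 reached 16 counts, and the 3 basal markers summed to 0 to 0.109 CPM in the vehicle libraries and 0.236 to 0.637 CPM with DHT. The fibroblast genes COL1A1 and PDGFRB were present at medians of 34.8 and 1.12 CPM and the endothelial gene VWF at 11.6 CPM. The 4 fibroblast markers summed to 38.4 to 48.5 CPM in nonspecific vehicle, 34.9 to 38.7 in nonspecific DHT, 33.8 to 36.8 in paxillin vehicle and 25.7 to 28.5 in paxillin DHT, and the part of these markers in the results was not tested. In bulk RNA, fewer cells that express a gene and less of its RNA per cell cannot be told apart.

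Promoter sequence from RefSeq (GRCh38.p14) was matched to 7 of the 10 genes, with 11 promoters running from 250 bases before to 50 bases after a start. Both strands were searched for the full palindrome of steroid response elements (AGAACA, any 3 bases, TGTTCT), which was in none of the 7 genes and in 1 of 27167 genes in the whole table. A looser form (GNACA, any 3 bases, TGTNC), of which the full palindrome is a special case, was in 1 of the 7 and in 0.479% of all genes with a promoter in the table. The single hexamer AGAACA, which is one arm of the full palindrome, was in PMEPA1 alone among the 7 and in 17.6% of all genes, or in 2 of the 11 member promoters and 14.8% of all promoters. A match is a description of letters and not a binding site.

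The stretches below show where those letters stand in PMEPA1 and GNMT, and how unlike the promoters of 2 other members are. Of the PMEPA1 starts in the table, 2 had the hexamer and others did not. The labels first and second below order these 2 by coordinate, so on the minus strand the second lies upstream. For the one at the lower coordinate, bases 250 to 1 before the start are given, from chr20:57710578-57710827 on the minus strand, with the hexamer in capitals as TGTTCT, its reverse complement, 229 to 224 bases before the start. That hexamer lies in an intron of PMEPA1 and in an exon of the antisense gene NKILA. For the other PMEPA1 start, the 30 bases around the hexamer are given, from chr20:57711433-57711462 on the minus strand. There the hexamer lies 23 to 28 bases after the start, in an annotated untranslated exon of PMEPA1 and likewise in an exon of NKILA. For GNMT, the 30 bases are from chr6:42960765-42960794 on the plus strand, and the capitals mark the match to the looser form, which lies 20 to 32 bases after the start in the annotated coding sequence of GNMT. The C1orf116 and CAMKK2 stretches, each of 250 bases before the start, are chr1:207032757-207033006 and chr12:121296710-121296959, both on the minus strand, with no capitals.
PMEPA1 first start: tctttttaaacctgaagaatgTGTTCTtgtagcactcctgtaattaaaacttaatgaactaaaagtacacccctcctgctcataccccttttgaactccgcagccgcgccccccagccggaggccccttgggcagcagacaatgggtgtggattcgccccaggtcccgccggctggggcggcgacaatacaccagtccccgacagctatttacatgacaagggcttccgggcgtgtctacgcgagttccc
PMEPA1 second start: cttgacttctccAGAACAagcctcctggtc
GNMT: aggatggtGGACAGCGTGTACcggacccgc
C1orf116: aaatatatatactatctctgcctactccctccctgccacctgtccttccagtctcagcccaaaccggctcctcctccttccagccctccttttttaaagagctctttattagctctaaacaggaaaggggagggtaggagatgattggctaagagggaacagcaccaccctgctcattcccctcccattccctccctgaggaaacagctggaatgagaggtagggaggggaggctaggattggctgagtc
CAMKK2: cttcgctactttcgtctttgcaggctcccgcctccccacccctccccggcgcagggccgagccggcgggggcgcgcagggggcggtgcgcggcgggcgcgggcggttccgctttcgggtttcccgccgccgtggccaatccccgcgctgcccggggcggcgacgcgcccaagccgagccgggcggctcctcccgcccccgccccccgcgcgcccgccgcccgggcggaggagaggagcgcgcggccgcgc
The C1orf116 stretch held 52.4% G and C and 1 CpG, and the CAMKK2 stretch held 82.8% and 46 CpG. Over whole promoters, the median GC content was 64.3% in the 11 member promoters and 58.7% in the table. The forkhead motif TGTTTAC was in none of the 7 genes (4.19% of all genes). The CCAAT box was in all 7, beside 39.8% of all genes, and the SP motif GGGCGG in 5 of 7, beside 48.2% of genes. TTTGAA, a motif of cell cycle promoters, was in 2 of the 7, beside 18.2% of genes.

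DHT raised all 10 genes in cells with nonspecific siRNA, by 2.24-fold for MPHOSPH9 to 10.95-fold for PMEPA1. The median was 1.57 on the log2 scale, beside -0.01 over all tested genes. All 10 passed the test (edgeR quasi-likelihood, Benjamini-Hochberg adjusted p under 0.05), where 21.6% of tested genes were called higher. All 10 rose at least 2-fold, as did 3.69% of tested genes, and in all 10 the DHT and vehicle libraries did not overlap, as was so for 26.3% of genes in that direction. The 10 genes together held 0.120% to 0.123% of all counts in the nonspecific vehicle libraries and 0.356% to 0.412% with DHT. These genes were listed with earlier results of these data known, so the counts describe the list and are not independent evidence of its direction. Among all genes called, 53.3% were higher with DHT, and 41.0% were with upper-quartile scaling, under which all 10 members remained called higher.

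**Figure D1:**
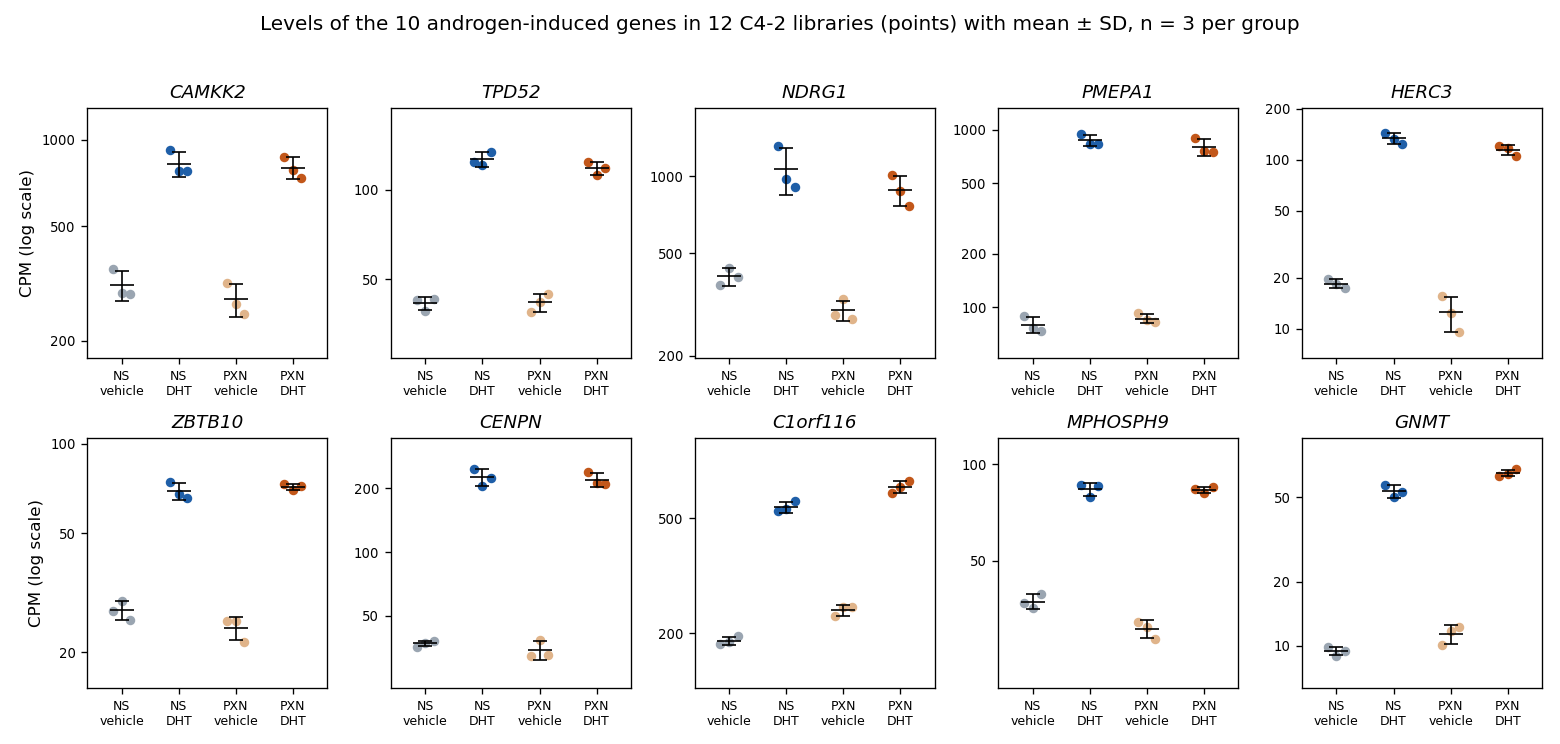
Level in CPM of each gene in the 12 libraries, on a log axis, for nonspecific (NS) and paxillin (PXN) siRNA with vehicle or DHT. Points are libraries and bars are the mean ± SD (n = 3 per group); in every panel the DHT libraries lie above the vehicle libraries of the same siRNA.

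Among genes that act in signalling, the largest rise was in PMEPA1, which encodes a membrane protein that binds NEDD4-type ubiquitin ligases and restrains TGF-beta signalling through SMAD proteins. Its levels in the nonspecific vehicle libraries 1, 2 and 3 were 88.9, 76.1 and 73.7 CPM, and with DHT they were 943, 827 and 834 CPM. The lowest DHT library stood far above the highest vehicle library, and replicate 1 was highest in all 4 groups. The rise was 3.45 on the log2 scale (SE 0.096, edgeR adjusted p = 1.2e-14), which ranked 89 among the rises of all tested genes. With paxillin siRNA, PMEPA1 went from 92.3, 84.7 and 82.2 CPM in vehicle to 897, 753 and 743 CPM in DHT, a log2 rise of 3.21 (SE 0.094). Its locus (GRCh38, GENCODE 29) is chr20:57648392-57711536 on the minus strand. NKILA overlaps 6.1% of the PMEPA1 exon bases on the other strand and itself rose by 1.98 on the log2 scale. The strand setting of the counting is not given in the sources used here, so reads in overlaps of this kind cannot be assigned with certainty.

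CAMKK2 encodes a calcium/calmodulin-dependent kinase that activates AMPK and other kinases. It had 356, 292 and 290.2 CPM in nonspecific vehicle and 922, 781 and 778 CPM with DHT. In paxillin siRNA cells it had 319, 269 and 248 CPM in vehicle and 875, 788 and 739 CPM with DHT. In all 4 groups replicate 1 was highest and replicate 3 lowest, and under each siRNA the DHT libraries lay wholly above the vehicle libraries. The log2 rise was 1.41 (SE 0.103) with nonspecific and 1.52 (SE 0.104) with paxillin siRNA, or 2.65-fold and 2.87-fold. CAMKK2 lies at chr12:121237691-121298308 on the minus strand, 971919 bases from PXN with 22 protein-coding genes between them.

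NDRG1, a stress-responsive protein linked to differentiation and known as a substrate of SGK kinases, was the most variable member under DHT. Its nonspecific vehicle libraries had 376, 440.0 and 404 CPM and its DHT libraries 1314, 974 and 906 CPM, so that replicate 1 stood well above the other 2. With paxillin siRNA the values were 289, 331 and 279 CPM in vehicle and 1006, 878 and 768 CPM with DHT. The log2 rise was 1.39 (SE 0.123) and 1.56 (SE 0.123), 2.62-fold and 2.95-fold. Its locus is chr8:133237171-133302022 on the minus strand.

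HERC3, a HECT-type ubiquitin ligase, had the second largest rise under both siRNAs. It was at 19.7, 18.5 and 17.4 CPM in nonspecific vehicle and at 144, 133 and 124 CPM with DHT, a log2 rise of 2.86 (SE 0.118) or 7.26-fold. With paxillin siRNA it started lower, at 15.6, 12.4 and 9.56 CPM, and reached 121, 118 and 105 CPM, a log2 rise of 3.19 (SE 0.119) or 9.14-fold. The 2 vehicle groups did not overlap, nor did the 2 DHT groups, and replicate 1 was highest in all 4 groups. HERC3 lies at chr4:88592423-88708542 on the plus strand.

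TPD52 encodes a coiled-coil protein of vesicle traffic and lipid storage that is amplified in many prostate cancers. Its levels were 42.6, 39.2 and 42.9 CPM in nonspecific vehicle and 124, 121 and 134 CPM with DHT, 3.05-fold higher. With paxillin siRNA they were 38.7, 42.1 and 44.5 CPM and 124, 112 and 118 CPM, 2.83-fold higher. The log2 rise with nonspecific siRNA was 1.61 (SE 0.070), and the vehicle libraries of both siRNAs overlapped. ZBTB10, a zinc finger factor known to repress SP-driven genes, was lower in level, at 27.5, 29.7 and 25.7 CPM in nonspecific vehicle and 74.5, 67.6 and 65.6 CPM with DHT. Its paxillin siRNA libraries had 25.5, 25.3 and 21.6 CPM in vehicle and 73.1, 69.8 and 72.4 CPM with DHT. The rise of ZBTB10 was 2.50-fold with nonspecific siRNA and 2.97-fold with paxillin siRNA. TPD52 (chr8:80034745-80231232, minus strand) and ZBTB10 (chr8:80485619-80526265, plus strand) are separated by 254386 bases with 0 protein-coding genes between them.

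CENPN, a centromere protein that reads the CENP-A nucleosome, went from 35.8, 37.3 and 38.0 CPM to 247, 205 and 225 CPM with nonspecific siRNA. With paxillin siRNA it went from 32.4, 38.4 and 32.6 CPM to 239, 211 and 211 CPM. The rises were 6.08-fold and 6.40-fold, or 2.60 (SE 0.085) and 2.68 (SE 0.084) on the log2 scale. CMC2, on the other strand, covers 12.8% of the CENPN exon bases and itself rose by 1.22 on the log2 scale with nonspecific siRNA. MPHOSPH9, a protein of the mother centriole cap that restrains cilium growth, had the smallest rise with nonspecific siRNA. Its levels were 36.8, 35.6 and 39.6 CPM in vehicle and 86.0, 79.2 and 85.6 CPM with DHT, and with paxillin siRNA 32.4, 31.1 and 28.6 CPM and 83.8, 81.3 and 84.8 CPM. The DHT groups of MPHOSPH9 overlapped fully between siRNAs, while its vehicle groups did not overlap. Its log2 rises were 1.16 (SE 0.066) and 1.44 (SE 0.065). CENPN lies at chr16:81006498-81033114 on the plus strand and MPHOSPH9 at chr12:123152320-123244014 on the minus strand.

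GNMT, the glycine N-methyltransferase that consumes S-adenosylmethionine, had the lowest CPM of the members in nonspecific vehicle. It was at 9.86, 8.99 and 9.44 CPM in nonspecific vehicle and at 57.3, 49.9 and 53.1 CPM with DHT. In paxillin siRNA cells it was at 10.1, 11.7 and 12.2 CPM in vehicle and at 63.0, 64.6 and 67.6 CPM with DHT. Every paxillin siRNA library was above every nonspecific siRNA library of the same treatment, and the DHT rises were 5.70-fold and 5.75-fold. C1orf116, known as a specifically androgen-regulated gene whose protein has little described function, showed the same order of groups. It was at 185, 186 and 196 CPM in nonspecific vehicle, 528, 536 and 572 CPM in nonspecific DHT, 229, 246 and 246 CPM in paxillin vehicle, and 612, 639 and 673 CPM in paxillin DHT. The C1orf116 rises were 2.89-fold and 2.67-fold. GNMT lies at chr6:42960758-42963880 on the plus strand and C1orf116 at chr1:207018521-207032756 on the minus strand.

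**Figure D2:**
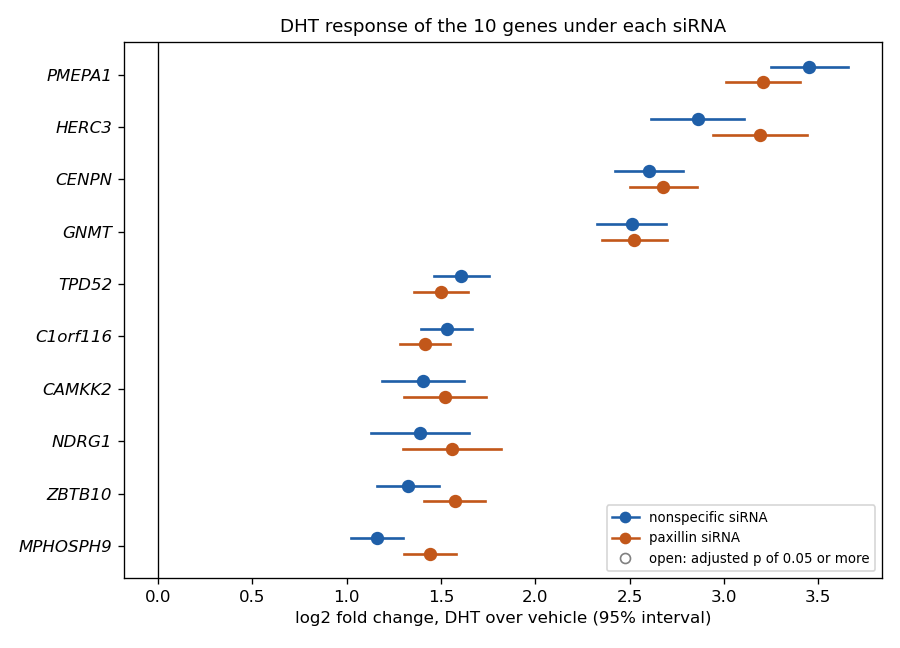
Log2 fold change of DHT over vehicle (horizontal axis) for the 10 genes under nonspecific and paxillin siRNA, with 95% intervals from the edgeR fit of 12 libraries. All 20 values lie above 1, and PMEPA1, HERC3, CENPN and GNMT lie above 2.5 under both siRNAs.

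In paxillin siRNA cells DHT also raised all 10 genes, with 20.1% of tested genes called higher and 3.57% at least 2-fold higher. The median was 1.57, beside -0.01 for all tested genes, and the range was 2.67-fold for C1orf116 to 9.23-fold for PMEPA1. Of all calls, 52.8% were higher, and 36.5% were with upper-quartile scaling, under which the members remained called higher. The DHT fold under paxillin siRNA was 84.3% of that under nonspecific siRNA for PMEPA1 and 125.8% for HERC3, with the other 8 genes between.

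The difference of the DHT responses was tested itself, as an interaction. None of the 10 genes passed it in edgeR (0.0496% of tested genes were called in either direction), nor with DESeq2 or limma-voom. At an unadjusted edgeR p under 0.05, for which the share of all tested genes is not given here, there were 2. These were MPHOSPH9, whose log2 response was 0.28 larger with paxillin siRNA (95% interval 0.08 to 0.47, edgeR adjusted p = 0.40), and ZBTB10, 0.25 larger (0.02 to 0.48, adjusted p = 0.52). The interval was -0.01 to 0.67 for HERC3, -0.51 to 0.02 for PMEPA1 and -0.19 to 0.53 for NDRG1, the widest of the 10. For GNMT it was -0.24 to 0.27 and for C1orf116 -0.30 to 0.07. With the replicate block the standard errors were smaller for PMEPA1 (-0.25, SE 0.075, edgeR adjusted p = 0.13), HERC3 (0.36, SE 0.108, adjusted p = 0.13) and MPHOSPH9 (0.28, SE 0.086, adjusted p = 0.14). No member was called in any of the 18 settings tried, which does not show that the responses were alike.

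Per exon length (RPKM, over the GENCODE 29 exon union), the order of the 10 genes changed with DHT. The annotation used for the counts is not given, so these lengths may differ from the exons counted. The union also holds exons that these cells may not use, so the order between genes is approximate. In nonspecific vehicle CAMKK2 and NDRG1 were highest, at means of 45.1 ± 5.36 and 41.4 ± 3.27 RPKM (SD, n = 3), with overlapping libraries. C1orf116 followed at 34.3 RPKM, PMEPA1 at 14.2, CENPN at 10.4 and GNMT at 8.80, then TPD52 at 5.07 and MPHOSPH9 at 3.62. ZBTB10 and HERC3 were lowest and overlapped, at 2.70 ± 0.19 and 2.66 ± 0.17 RPKM. With DHT, PMEPA1 came first at 154.5 ± 11.5 RPKM and did not overlap CAMKK2, at 119.3 ± 11.9 RPKM. NDRG1, at 108.4 ± 22.3 RPKM, overlapped both CAMKK2 and C1orf116, at 99.1 ± 4.32 RPKM. CENPN at 63.2 and GNMT at 49.9 RPKM did not overlap each other. HERC3, at 19.2 RPKM, moved above TPD52 (15.4), MPHOSPH9 (8.11) and ZBTB10 (6.78), each apart from its neighbours in the order.

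Paxillin siRNA moved a smaller set of these genes, and by less than DHT did. In vehicle, C1orf116 rose 1.27-fold (log2 0.35, SE 0.063, edgeR adjusted p = 9e-04) and GNMT 1.21-fold (0.27, SE 0.093, adjusted p = 0.049). HERC3 fell 1.47-fold (log2 -0.55, SE 0.127, adjusted p = 0.0053), NDRG1 1.36-fold (-0.44, SE 0.121, adjusted p = 0.016) and MPHOSPH9 1.22-fold (-0.28, SE 0.068, adjusted p = 0.0067). Of the 10 members, 2 were thus higher and 3 lower, where 10.7% and 9.78% of tested genes were called in these directions. The groups did not overlap for 2 members that were higher and 4 that were lower, as for 18.1% and 17.7% of tested genes. The remaining values were -0.19 for ZBTB10, whose vehicle groups did not overlap (adjusted p = 0.098), -0.16 for CAMKK2, -0.11 for CENPN, 0.13 for PMEPA1 and 0.01 for TPD52. Of 3 markers of prostate lines that do not respond to androgen, CD44 and CAV1 had at most 6 counts in any library, while VIM ran from 9.05 to 29.8 CPM, and the sum of the 3 was 9.13 to 12.9 CPM with nonspecific and 17.9 to 29.8 CPM with paxillin siRNA. Its part in the differences between siRNAs was not tested.

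Replicate numbers paired the libraries across groups, and with the number as a block CAMKK2 (log2 -0.17, edgeR adjusted p = 0.022) and ZBTB10 (-0.20, adjusted p = 0.036) were also called lower in vehicle. Over all tested genes the block gave 2173 called lower there, instead of 1576. The HERC3 and C1orf116 calls held in all 19 settings. GNMT passed in 6 of 19, with adjusted p from 0.013 to 0.19. It missed the threshold without the filter on low counts, with DESeq2, with limma-voom, with the compared groups alone, and without each of the nonspecific vehicle libraries, nonspecific DHT 2 or 3, paxillin vehicle 2 or 3, or paxillin DHT 1 or 2. Without paxillin vehicle library 3, NDRG1 (adjusted p = 0.076) and MPHOSPH9 (0.054) were no longer called, which left 1 of 10 genes lower, and without nonspecific vehicle library 2 NDRG1 was not called (0.089). Calls lower over all genes also dropped, from 1576 to 861 without the former library and to 941 without the latter.

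**Figure D3:**
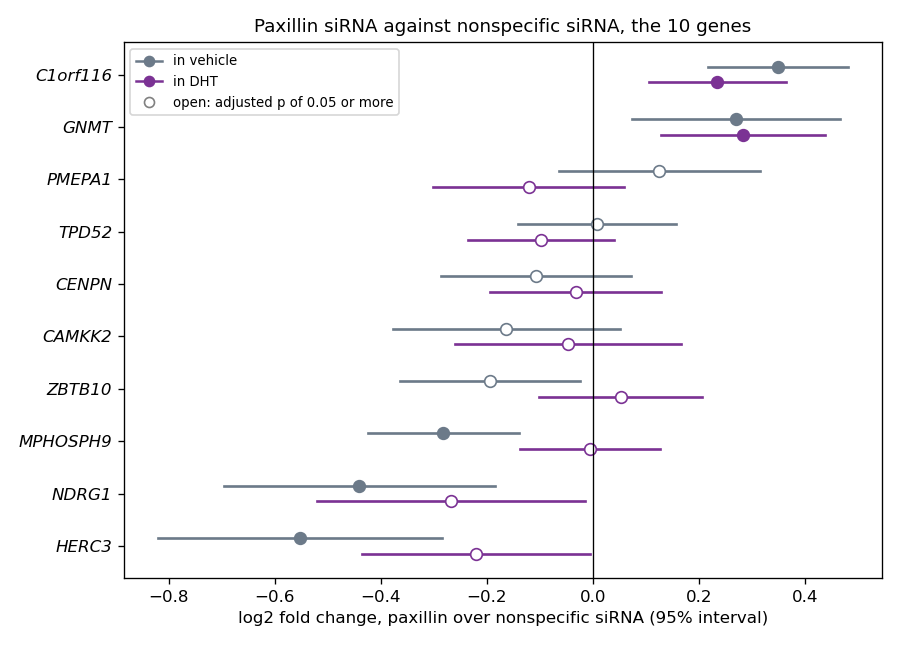
Log2 fold change of paxillin over nonspecific siRNA (horizontal axis) for the 10 genes in vehicle and in DHT, with 95% intervals from the edgeR fit of 12 libraries. C1orf116 and GNMT lie above 0 under both treatments, and HERC3 and NDRG1 lie lowest under both.

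Under DHT, GNMT was 1.22-fold higher with paxillin siRNA (log2 0.28, SE 0.074, edgeR adjusted p = 0.016) and C1orf116 1.18-fold higher (0.23, SE 0.062, adjusted p = 0.017). These 2 of 10 compare with 6.34% of tested genes called higher. The paxillin and nonspecific siRNA libraries did not overlap for GNMT and C1orf116, both higher (16.1% of tested genes in that direction), and for HERC3, which was lower (16%). None of the 10 was called lower in this fit (7% of tested genes were), nor by DESeq2 or limma-voom, though NDRG1 and HERC3 had unadjusted p of 0.0388 and 0.0444. Their values were -0.27 for NDRG1 and -0.22 for HERC3. With the replicate block both were called lower, NDRG1 at -0.27 (edgeR adjusted p = 0.041) and HERC3 at -0.22 (0.015), and without the filter on low counts NDRG1 was (adjusted p = 0.0063). Over all tested genes the block gave 1805 called lower under DHT, instead of 1128. The NDRG1 value rested in part on single libraries: it was -0.09 (adjusted p = 0.66) without nonspecific DHT library 1 and -0.37 (adjusted p = 0.066) without nonspecific DHT library 3. The log2 differences of the remaining genes were -0.12 for PMEPA1, -0.10 for TPD52, -0.05 for CAMKK2, -0.03 for CENPN, 0.05 for ZBTB10 and -0.01 for MPHOSPH9. Neither GNMT nor C1orf116 passed without nonspecific DHT library 2 (adjusted p = 0.094 and 0.075) or paxillin DHT library 3 (0.077 and 0.089). C1orf116 also missed without nonspecific DHT 1 (0.065) or paxillin DHT 2 (0.052), and GNMT without nonspecific DHT 3 (0.053).

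Tested protein-coding genes that overlap a member, CMC2 at CENPN, C12orf65 at MPHOSPH9 and PEX6 at GNMT, were not counted as neighbours. The 18 nearest other tested protein-coding genes on either side that are not members moved in both directions. With nonspecific siRNA 8 of them rose with DHT, 6 fell and 4 did not pass, and with paxillin siRNA 9 rose, 5 fell and 4 did not pass. Over all tested genes 21.6% were called higher and 18.9% lower with nonspecific siRNA, and 20.1% and 17.9% with paxillin siRNA. Their median log2 change was 0.12 with nonspecific siRNA. PMEPA1 stood between RBM38 (log2 0.02, edgeR adjusted p = 0.89) and RAB22A (-0.09, adjusted p = 0.34), of which the former rose by 0.21 with paxillin siRNA (adjusted p = 0.045, above 0.05 in 13 of the alternatives). With the overlapping CMC2 left out, the genes on either side of CENPN also rose. These were CDYL2, a chromodomain protein 202168 bases away, by 1.29 and ATMIN, a DNA damage response factor, by 0.69.

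HERC3 lay between PYURF, which rose by 0.74, and FAM13A, which fell by 0.60 on the log2 scale. Beside CAMKK2, P2RX4, an ATP-gated channel, fell by 0.77 and ANAPC5, a subunit of the anaphase-promoting complex, rose by 0.30. Beyond the TPD52 and ZBTB10 pair, MRPS28 on one side did not pass (0.20, edgeR adjusted p = 0.24) and ZNF704 on the other fell by 0.63. At NDRG1, ST3GAL1, a sialyltransferase, fell by 1.11 from 1073 to 495.3 CPM. TG, the thyroglobulin gene on the other side, rose from 0.256 to 4.05 CPM, from few counts. At C1orf116, PFKFB2, a regulator of glycolysis, rose by 0.49, and PIGR, at 0.674 CPM in vehicle, had -1.34 (adjusted p = 0.033), a call lost with DESeq2 and without nonspecific vehicle library 2 or nonspecific DHT libraries 2 or 3. At GNMT, with the overlapping PEX6 left out, CNPY3 rose by 0.65 and PPP2R5D had 0.04 (edgeR adjusted p = 0.60). At MPHOSPH9, with the overlapping C12orf65 left out, CDK2AP1 rose by 0.33 and PITPNM2 had -0.35 (edgeR adjusted p = 0.031). The PITPNM2 call was lost without nonspecific vehicle libraries 1 or 3 or nonspecific DHT libraries 2 or 3.

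**Figure D4:**
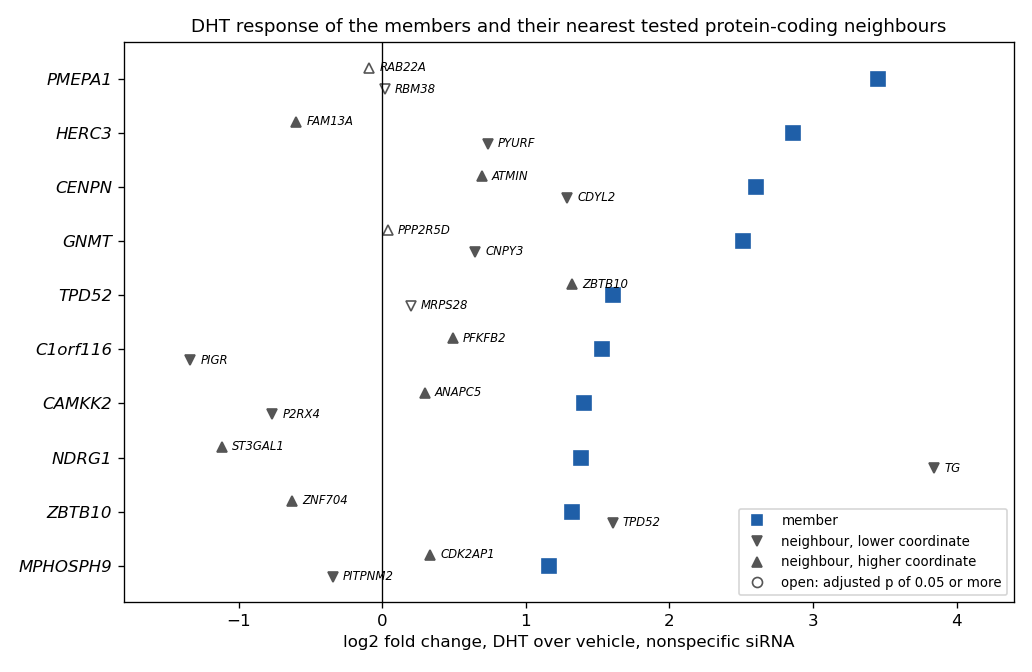
Log2 fold change of DHT over vehicle with nonspecific siRNA (horizontal axis) for each of the 10 genes (squares) and its neighbours (triangles, open where the adjusted p was 0.05 or more). Neighbours are the nearest tested protein-coding genes on either side that do not overlap the member. TPD52 and ZBTB10 are each other's neighbours, and TG is the only triangle above 2.

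Genes of the pathways and families of the members were followed in 9 lists, 136 tested genes in all and none of them a member. With DHT and nonspecific siRNA 31 of the 136 rose, 30 fell and 75 did not pass, where 21.6% of all tested genes were called higher and 18.9% lower. With paxillin siRNA 34 rose, 30 fell and 72 did not pass, where the shares over all tested genes were 20.1% and 17.9%. The list medians with nonspecific siRNA ran from -0.19 on the log2 scale for the centromere partners of CENPN to 0.23 for the TPD52 relatives, beside -0.01 over all tested genes.

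Of 20 genes around CaMKK and AMPK, 3 rose and 6 fell under each siRNA, and 5 rose with nonspecific siRNA when the replicate block was used. The AMPK catalytic subunit PRKAA2 rose from 7.38 to 11.8 CPM and ACACA, an AMPK substrate of fatty acid synthesis, 1.37-fold. CAMK1D, a kinase downstream of CAMKK2, fell from 3.01 to 0.964 CPM, and ACACB, the second acetyl-CoA carboxylase, fell 1.69-fold. Among 17 relatives and partners of PMEPA1, 6 rose and 5 fell with nonspecific siRNA, and 9 rose and 4 fell with paxillin siRNA. SMAD6, an inhibitory SMAD, rose 1.72-fold and the ubiquitin ligase NEDD4L 1.42-fold. NEDD4 fell 1.97-fold, SMAD3, which carries the TGF-beta signal, 1.94-fold, and the inhibitory SMAD7 1.65-fold.

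Of 8 genes around NDRG1, 2 rose and 3 fell with nonspecific siRNA, and 2 rose and 0 fell with paxillin siRNA (3 fell with upper-quartile scaling). That 0 was also the count in DESeq2 and limma-voom, and 1 gene was lower at an unadjusted p under 0.05 in edgeR. SGK1, a kinase of NDRG1, rose from 0.802 ± 0.144 to 69.1 ± 11.5 CPM (SD, n = 3), and from 1.37 to 68.7 CPM with paxillin siRNA, while its relative SGK3 rose 1.87-fold and 2.36-fold. Without nonspecific vehicle library 3 only 1 gene was called lower. Of the 4 tested TPD52 relatives and partners, TPD52L1, TPD52L2 and the lipid droplet protein PLIN3 rose by 0.22 to 0.26 on the log2 scale with nonspecific siRNA. MAL2, a TPD52 partner in membrane traffic, fell by 0.32. With paxillin siRNA the call of MAL2 was lost without paxillin vehicle library 1 or paxillin DHT library 2, and the list was then at 0 lower. The TPD52L1 call with nonspecific siRNA was lost with upper-quartile scaling and without nonspecific vehicle library 1 or nonspecific DHT libraries 2 or 3.

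Of the 5 other HERC ligases, HERC5, known as an interferon-induced ligase for ISG15, rose from 1.79 to 10.4 CPM and HERC6 1.78-fold with nonspecific siRNA, while HERC1 fell 1.26-fold. Under paxillin siRNA 3 rose and 0 fell (1 with upper-quartile scaling), and DESeq2, limma-voom and an unadjusted edgeR p under 0.05 gave 0 lower as well. Among 33 ZBTB and SP factors, 7 rose and 6 fell with nonspecific siRNA, and 9 rose and 5 fell with paxillin siRNA. ZBTB24 rose 3.41-fold and ZBTB16, known as PLZF, 3.19-fold, whereas ZBTB43 fell from 179 to 55.7 CPM. The 5 that fell with paxillin siRNA were 3 without paxillin vehicle library 2 or paxillin DHT library 2, and 8 with upper-quartile scaling.

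Of 19 tested centromere partners of CENPN, 0 rose and 4 fell with nonspecific siRNA in edgeR, and 8 fell with upper-quartile scaling. DESeq2 and limma-voom also called 0 higher, and 0 were higher at an unadjusted p under 0.05. The count that fell was 2 without nonspecific vehicle library 2 or nonspecific DHT library 1. CENPP, a subunit of the same network, fell 1.99-fold. With paxillin siRNA 10 fell, CENPP by 0.98 and CENPI by 0.63 on the log2 scale, and 0 rose, also with DESeq2, with limma-voom and at an unadjusted edgeR p under 0.05. The difference of these counts between siRNAs was not tested.

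Around the centriole cap, 1 of 11 genes rose and 3 fell with nonspecific siRNA (1 fell without nonspecific DHT library 2), and 1 rose and 4 fell with paxillin siRNA. With nonspecific siRNA 2 rose with the replicate block or without nonspecific vehicle library 2. The gene that rose was CEP83, by 0.48 on the log2 scale, and the kinase TTBK2, which promotes removal of the cap, had -0.48 (edgeR adjusted p = 0.0093, not called without nonspecific DHT library 3). In the methionine cycle, 7 of 19 genes rose and 1 fell with nonspecific siRNA, and 4 rose and 0 fell with paxillin siRNA. The 1 that fell, AHCYL1, was joined by others to make 3 with upper-quartile scaling and 2 with the replicate block or without nonspecific DHT library 3. That 0 was the count in DESeq2 and limma-voom too, with 2 genes lower at an unadjusted edgeR p under 0.05. It became 2 with upper-quartile scaling, and 1 without the filter on low counts, with the replicate block, or without nonspecific DHT library 2 or paxillin vehicle library 2. NNMT, which methylates nicotinamide and so also consumes S-adenosylmethionine, rose from 1.49 to 5.96 CPM, and MTAP, of the methionine salvage pathway, rose 1.73-fold.

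**Figure D5:**
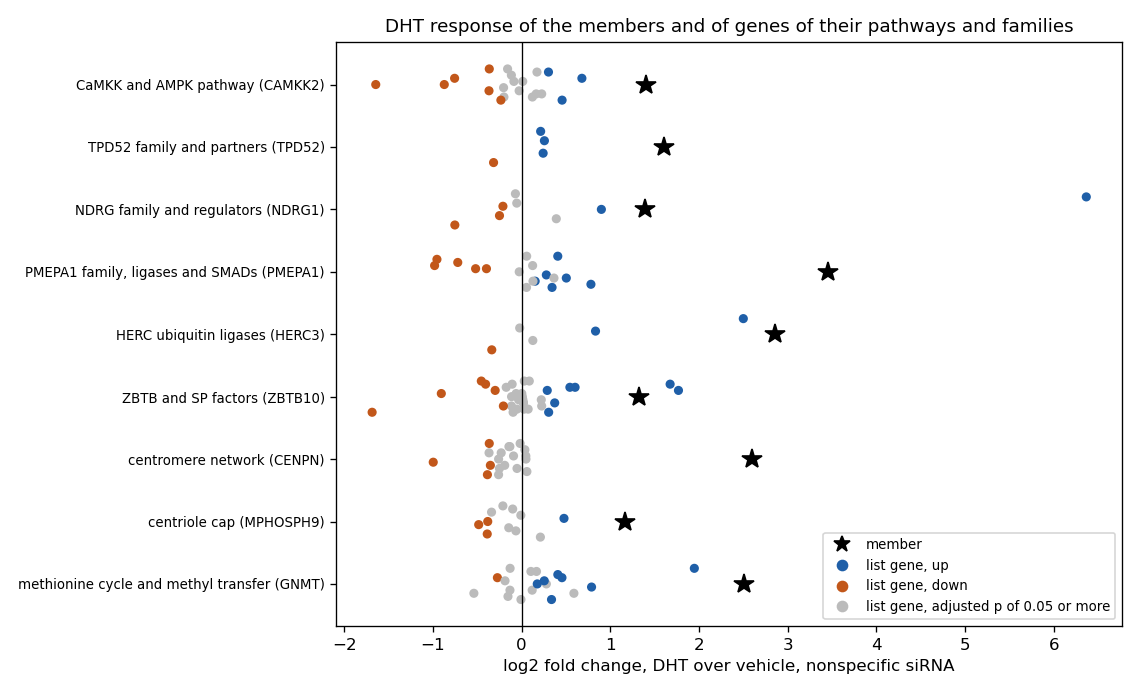
Log2 fold change of DHT over vehicle with nonspecific siRNA (horizontal axis) for the members (stars) and the tested genes of 9 pathway and family lists (points, coloured by call). SGK1, above 6, and HERC5, above 2, lie farthest to the right of the list genes.

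Of the 136 list genes, 11 rose and 24 fell with paxillin siRNA in vehicle, where 10.7% of all tested genes were called higher and 9.78% lower. Under DHT 8 list genes rose and 21 fell, where the shares over all tested genes were 6.34% and 7%. Leaving out 1 library at a time gave 3 to 13 list genes higher and 13 to 27 lower in vehicle, both lowest without paxillin vehicle library 3. Under DHT it gave 2 to 9, lowest without nonspecific DHT library 2, and 11 to 23, lowest without paxillin DHT library 3. With the replicate block, 14 rose and 36 fell in vehicle, and 15 and 30 under DHT. The block also gave more calls over all tested genes. These were 2384 higher and 2173 lower in vehicle, instead of 1727 and 1576. Under DHT they were 1681 and 1805, instead of 1021 and 1128. The AMPK subunit PRKAA1 fell by 0.86 in vehicle and by 0.84 under DHT. MAL2 fell by 0.78 and 0.74, calmodulin CALM3 by 0.50 and 0.58, and CTH, which makes cysteine, by 0.83 and 0.83. Those 4 genes remained called under all alternatives. ZBTB43 also fell, by 0.83 in vehicle and 0.89 under DHT. In the other direction, CAMK1D rose by 0.83 in vehicle, from 3.01 to 5.36 CPM, and by 1.18 under DHT. Its vehicle call was lost without nonspecific vehicle library 3 or paxillin vehicle library 3.

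Across the 12 libraries the log2 levels of the 10 genes followed each other closely, with Pearson r from 0.876 to 0.996 (median 0.977, 45 pairs), as is bound to be so where all share the step between vehicle and DHT. After removal of the group means, r ran from -0.789 to 0.930 with a median of 0.229. Among 10700 genes with a mean of at least 5 CPM, the gene most like PMEPA1 over the 12 libraries was SLC45A3 (r 0.999), a prostate membrane transporter known as prostein. FKBP5, a cochaperone of steroid receptors, was most like both TPD52 (0.997) and CENPN (0.998). The gene most like CAMKK2 was PHF8 (0.999), a histone demethylase, and that most like HERC3 was BCCIP (0.998). For NDRG1 it was ZBTB16 (0.991), for ZBTB10 DNM1L (0.996), for C1orf116 ALDH1A3 (0.996), for MPHOSPH9 MBOAT2 (0.994) and for GNMT HSD17B4 (0.998). These correlations are descriptions over libraries that share their groups.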

How the data were processed

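The authors deposited raw counts per gene symbol for 12 libraries of a TruSeq stranded mRNA kit. Per the submitters' processing notes, Trimmomatic 0.36, STAR 2.5.2b and featureCounts of Subread 1.5.0p3 were used with GRCh38. No source used here gives the annotation release or strand setting. Analysis was in edgeR 4.0.16 under R 4.3.3. filterByExpr (minimum count 10, minimum total 15) kept 16115 genes, scaling was by TMM, and 1 quasi-likelihood fit with a mean for each of 4 groups used all 12 libraries. Calls are at a Benjamini-Hochberg adjusted p under 0.05 over all tested genes. The edgeR fit was tried on simulated counts for DHT with nonspecific siRNA. The other comparisons, the alternatives and the promoter and neighbour steps were not tried in this way.

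The members, lists and tests were chosen with earlier results of these data known. Named are all members, PXN, the nearest tested neighbours that do not overlap a member, the most alike gene, and list genes taken from the largest called changes. A list and a few single genes are not reported here.

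Replicate numbers are shared by the groups. Over 9283 genes, the 18 pairs of libraries with 1 number had deviations from their group means that correlated at 0.177 to 0.513, against -0.454 to 0.241 in the 36 other pairs, so the numbers were taken to pair the libraries. The main fit, and so the figures and main calls, leave this pairing out, and the replicate block uses it. Replicates of a group differed beyond sampling noise. As alternatives, scaling was by RLE or upper quartile, the filter was dropped, and the fit was by DESeq2 1.42.0, by limma-voom (limma 3.58.1), or with the replicate block, the compared groups alone, or each library left out.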

Additional observations from a re-analysis of the deposited data

How the results depend on the processing

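In both DHT comparisons all 10 members kept their direction and call under every alternative. Alternatives for lists, list genes and neighbours were chosen after seeing the data. For paxillin siRNA in vehicle, 1 member instead of 2 was called higher without the filter, with DESeq2, with limma-voom and with the compared groups alone, and 5 instead of 3 were called lower with the replicate block. With the block the calls over all genes in vehicle were 2384 higher and 2173 lower instead of 1727 and 1576. Under DHT, 1 instead of 0 was called lower without the filter and 2 with the replicate block, where the calls over all genes were 1681 higher and 1805 lower instead of 1021 and 1128. The block changed no other member's call.

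For the interaction the calls over all genes, 6 higher and 2 lower, were 45 and 97 without the filter, 28 and 29 with DESeq2, 0 and 0 with limma-voom, and 42 and 55 with the block. The causes were not tested.

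Leaving out 1 library gave 1 to 2 members higher and 1 to 3 lower in vehicle, and 0 to 2 higher under DHT. Over all genes it gave 987 to 1902 higher and 861 to 1622 lower in vehicle, 484 to 1152 and 694 to 1319 under DHT, and 0 to 12 and 0 to 14 for the interaction. The lowest counts were without paxillin vehicle library 3 in vehicle and without paxillin DHT library 3 under DHT.

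Signs turned only for values near 0. With upper-quartile scaling these were RBM38 (-0.0557) and PPP2R5D (-0.033) for DHT with nonspecific siRNA, RAB22A (-0.0584) with paxillin siRNA and GNMT (-1e-04) in the interaction. Without the filter it was MPHOSPH9 (0.0061) for the siRNA under DHT, also with DESeq2 (0.0011). Leave-one-out ranges that crossed 0 were RBM38 (-0.057 to 0.069) for DHT with nonspecific siRNA, RAB22A (-0.024 to 0.065) for DHT with paxillin siRNA, TPD52 (-0.034 to 0.067) for the siRNA in vehicle, CAMKK2 (-0.12 to 0.039), CENPN (-0.10 to 0.037), MPHOSPH9 (-0.043 to 0.016) for the siRNA under DHT, GNMT (-0.078 to 0.065) for the interaction. Depth limits the low genes named, TG and PIGR among them.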
